A study of Mus musculus with 6 samples.

Results

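The genes that move calcium out of the cytosol were followed in translating RNA of the mouse choroid plexus (ChP) from the embryo to the adult. They were 9 of the 24354 gene names in the table, taken by symbol: the pumps Atp2a2, Atp2a3, Atp2b1, Atp2b2, Atp2b3, Atp2b4 and Atp2c1, and the exchangers Slc8a1 and Slc24a4. All 9 were listed, and 8 of them passed the filter of a mean above 1 FPKM (fragments counted per kilobase of a transcript and relative to the number of mapped reads) over the 6 samples. Only Slc8a1 did not. The data came from TRAP-seq, in which ribosomes carrying a tagged protein are pulled down with the mRNA bound to them and that mRNA is sequenced. All 6 samples shared the genotype FoxJ1:cre x bacTRAP (EGFP:L10a), with no treatment, so that the tag was present where Cre driven by Foxj1 had been active. The groups were 3 adult samples of P60 and 3 samples of E16.5. By the study's methods the tissue was ChP of the lateral ventricles pooled from several mice or litters for each sample, whereas the series text counts 3 mice per age, so that the number of animals behind a replicate was not settled, and the p-values measure only the spread between these samples.

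Cells keep calcium in the cytosol far lower than outside or in their stores, and they do so with ATP-driven pumps and with exchangers that let sodium in against calcium. The SERCA pumps (Atp2a genes) fill the endoplasmic reticulum, the PMCA pumps (Atp2b genes) push calcium out through the plasma membrane, and the SPCA pumps (Atp2c genes) load the Golgi with calcium and manganese. NCX exchangers (Slc8a genes) trade sodium for calcium, and NCKX exchangers (Slc24a genes) also carry potassium along with the calcium. The ChP is the epithelium in the brain ventricles that secretes cerebrospinal fluid, and it handles calcium both as a signal and as an ion of that fluid.

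The 7 pumps belong to the P-type ATPases, which pass a phosphate from ATP to an aspartate of their own chain in each cycle. The coding sequence around that aspartate is shown for 5 of them, because the pumps of all 3 classes hold this site in common. Each window holds 57 bases of the coding strand, and the 21 capitals code for the aspartate and the residues that follow it.
Atp2a3: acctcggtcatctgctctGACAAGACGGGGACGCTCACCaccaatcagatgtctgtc
Atp2b1: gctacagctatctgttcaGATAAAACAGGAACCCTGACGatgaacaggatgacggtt
Atp2b2: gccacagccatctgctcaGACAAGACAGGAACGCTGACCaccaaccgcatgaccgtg
Atp2b4: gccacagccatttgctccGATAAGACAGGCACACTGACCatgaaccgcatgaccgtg
Atp2c1: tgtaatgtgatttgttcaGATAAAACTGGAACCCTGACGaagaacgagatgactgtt
The windows lie in coding exons of GRCm38 (mm10), at chr11:72975588-72975644 (plus strand) for Atp2a3, chr10:98999799-98999855 (plus strand) for Atp2b1, chr6:113789879-113789935 (minus strand) for Atp2b2, chr1:133731789-133731845 (minus strand) for Atp2b4 and chr9:105445254-105445310 (minus strand) for Atp2c1. Atp2b2 and Atp2b4, both plasma membrane pumps, matched at 50 of 57 bases, and Atp2b2 and the Golgi pump Atp2c1 at 36. The matches did not follow the class throughout, since Atp2b1 matched Atp2c1 at 45 bases and Atp2b2 and Atp2b4 at 44 each. Over whole transcripts, reads of 50 bases could be told apart, since 0.166% of the 50-base stretches of Atp2b3 transcripts and 0.0550% of those of Atp2b2 occurred in another gene. The share was 17.4% in Atp2c1, all of it in Aste1, whose exons overlap Atp2c1 on the other strand, and 3.93% in Atp2a2. Aste1 was listed between 0 and 3.73 FPKM in the 6 samples. Whether strand was used in quantification is not given in the sources used here.

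Of the 8 genes tested, 5 rose with age and 0 fell, by limma on log2(FPKM + 1) with p adjusted over all 11601 genes tested. Among all genes tested, 2.12% were higher in the adult and 8.83% higher at E16.5 by the same test. The 5 were Atp2a2, Atp2b2, Atp2b3, Atp2c1 and Slc24a4, so that each of the SERCA, PMCA, SPCA and NCKX classes had a member that rose. These were also the 5 in which no adult sample was as low as any E16.5 sample, which held for 7.39% of all genes tested. In Atp2b4 all adult samples were below all E16.5 samples, as in 31.0% of all genes tested. The median log2 change (adult minus E16.5) of the 8 was 1.69, against -0.86 over all genes tested. Relative to that median of all genes, the changes of the 5 came to 2.18 for Atp2a2, 2.33 for Atp2b2, 2.68 for Atp2c1, 2.91 for Atp2b3 and 5.40 for Slc24a4 on the log2 scale. Over the genes listed above 0 in all samples, to which these 5 belong, the median was nearer to no change (-0.38), so that the distance from it was smaller.

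**Figure D1:**
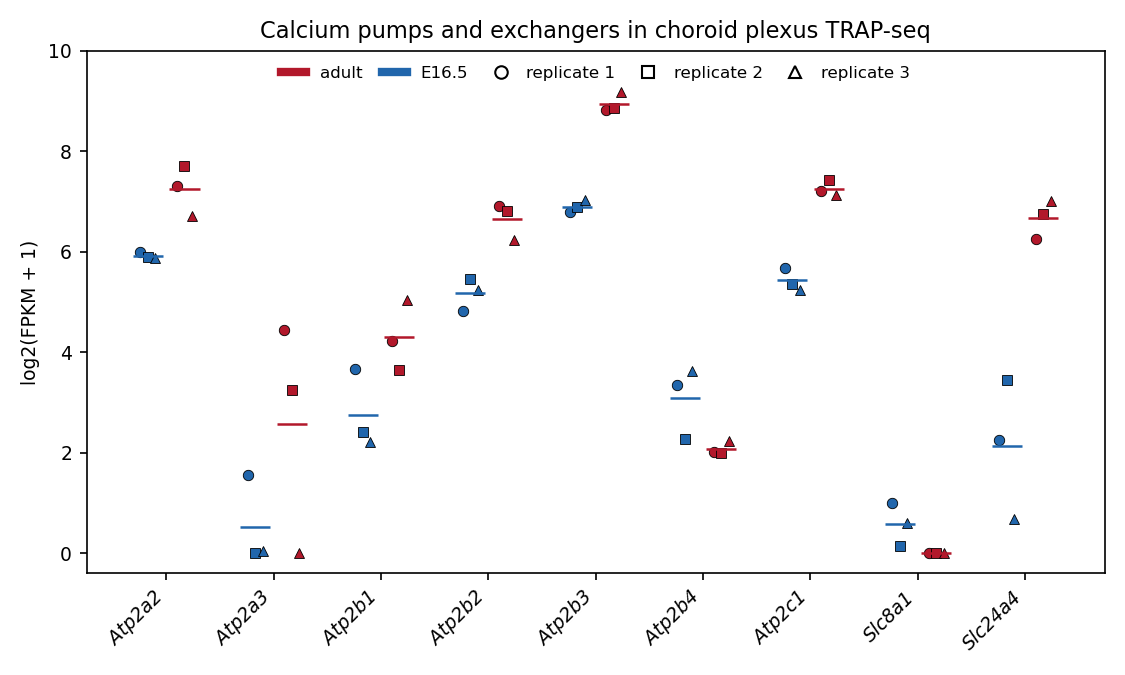
Level of each gene, as log2(FPKM + 1), in each of the 3 adult (red) and 3 E16.5 (blue) samples, with the mean of each group on that scale as a bar. Atp2b3 was highest at both ages (450 to 575 FPKM in the adult and 110 to 129 FPKM at E16.5), and Slc24a4 moved from 0.610 to 9.96 FPKM at E16.5 up to 75.1 to 128 FPKM in the adult.

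Some facts of the libraries stand beside all of these values. One gene, Mir6236, took 32.7% to 51.7% of the summed FPKM in the adult samples and 13.3% to 15% at E16.5. Low FPKM values fall on multiples of what a single read is worth, which came to 0.114 to 0.324 FPKM for a kilobase of transcript in the adult and 0.0638 to 0.0807 FPKM at E16.5, so that the adult libraries were shallower. Of the genes tested, 10.3% to 36.4% were listed at 0 in an adult sample and 3.68% to 4.02% in an E16.5 sample. A value of 0 can be a failed estimate here, since Ttr, the leading ChP marker, was listed at 0 in all E16.5 samples and at 20922 to 31302 FPKM in the adult. The summed level of 12 markers of ChP epithelium, Ttr among them, was 39750 to 55019 FPKM in the adult and 2924 to 3379 FPKM at E16.5. Of the 12, 5 were higher in the adult and 1, Otx2, higher at E16.5 (2.12% and 8.83% of all genes tested). Ttr was among the 5, and its call rested on the E16.5 values of 0. Most of the adult sum was Ttr and Enpp2, the latter at 14886, 18732 and 16409 FPKM in the adult and 242, 303 and 274 FPKM at E16.5. Of the other markers, Folr1, Clic6, Otx2 and Aqp1 had lower means in the adult and the rest higher means. The summed level of 7 markers of motile cilia was 295 to 444 FPKM in the adult and 1908 to 2364 FPKM at E16.5. Of them, 0 were higher in the adult and 5 higher at E16.5 (2.12% and 8.83% of all genes tested), and Tppp3 and Dnah5 were at 0 in every adult sample. Foxj1, whose promoter drove Cre, was 37.9, 45.8 and 62.4 FPKM in the adult and 208, 198 and 154 FPKM at E16.5 (limma adjusted p = 0.0127). Their part in the changes of the calcium genes was not tested, and in bulk samples more cells of a type and more RNA per cell cannot be told apart.

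Markers of other cells were low against these sums but not even. The 11 neuronal and progenitor markers summed to 2.25 to 19.7 FPKM in the adult and to 4.30 to 102 FPKM at E16.5, the 102 being replicate 1, with Rbfox3, Stmn2, Dcx, Slc17a7, Eomes and Neurod1 at 0 in all adult samples. The 8 markers of oligodendrocytes and astrocytes summed to 73.0 FPKM in adult replicate 3, of which Mbp made up 58.7 FPKM, to 4.65 and 13.3 FPKM in the other adult samples, and to 7.01 to 16.7 FPKM at E16.5. Adult replicate 3 was also the shallowest library, and without it 6 of the members tested rose in place of 5. Calls over all genes grew as well, from 246 to 357 higher in the adult and from 1024 to 1364 higher at E16.5. Without E16.5 replicate 1 the count of members that rose was 0. The calls over all genes then fell from 246 to 32 higher in the adult and from 1024 to 25 higher at E16.5. This was not particular to replicate 1, since the count was 1 without E16.5 replicate 2 and 2 without E16.5 replicate 3. Over all genes, 27 and 47 were then higher in the adult and 16 and 65 higher at E16.5.
The other lists also summed to less than those of epithelium and cilia. Blood markers were neither low nor even at E16.5, with Hbb-bs at 299, 3.90 and 86.4 FPKM in replicates 1 to 3. Mesenchyme and fibroblast markers summed to 13.3 to 21.9 FPKM in the adult and 57.7 to 69.3 FPKM at E16.5, with Lum at 0 in the adult, and those of red blood cells and platelets to 0 to 7.59 FPKM and 55.3 to 327 FPKM. Endothelial markers summed to 0.489 to 19.0 FPKM in the adult and 12.7 to 39.3 FPKM at E16.5, with Tek and Emcn at 0 in the adult and Pecam1 and Cldn5 at 0 at E16.5. Macrophage markers reached at most 6.82 FPKM in the adult and 8.48 FPKM at E16.5, smooth muscle and pericyte markers 12.7 and 7.06 FPKM, and striated muscle markers 30.6 and 20.1 FPKM.

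Among the plasma membrane pumps, Atp2b3 (chrX:73503086-73571005, plus strand) was the most abundant at both ages. It codes for PMCA3, a fast calmodulin-activated isoform best known from brain. Atp2b3 was 450, 464 and 575 FPKM in adult replicates 1 to 3 and 110, 117 and 129 FPKM in E16.5 replicates 1 to 3. The lowest adult sample was thus well above the highest E16.5 sample, with the 3 samples of each age close together (496 ± 68.4 against 119 ± 9.91 FPKM, SD, n = 3 each). The log2 change was 2.05 (SE 0.23, 95% confidence interval 1.51 to 2.59, limma adjusted p = 0.00464), a fold of 4.14 on the FPKM + 1 scale. The adult level lay at the 99.4th to 99.6th percentile of the genes tested and the E16.5 level at the 94.5th to 95.9th percentile. The call was lost without E16.5 replicate 1 (log2 change 2.0, limma adjusted p = 0.0503) and without E16.5 replicate 2 (2.04, limma adjusted p = 0.0558), and was made in 16 of 18 alternative settings, with adjusted p from 0.00148 to 0.0558.

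Atp2b2 (chr6:113743831-114042613, minus strand) codes for PMCA2, the isoform known from hair cells and cerebellar neurons. It was 120, 112 and 74.0 FPKM in the adult and 27.4, 43.2 and 37.0 FPKM at E16.5. Adult replicate 3 was the lowest adult sample and still above all E16.5 samples (102 ± 24.8 against 35.9 ± 7.99 FPKM, SD, n = 3 each). The log2 change was 1.48 (SE 0.34, 95% confidence interval 0.69 to 2.27, limma adjusted p = 0.0368). This call rested on the full set of samples: it was made in 8 of 18 alternatives (adjusted p from 0.0167 to 0.241), and of the 6 samples only adult replicate 3 could be left out without losing it. The change came to 1.35 without adult replicate 1, 1.39 without adult replicate 2, 1.3 without E16.5 replicate 1, 1.62 without E16.5 replicate 2 and 1.51 without E16.5 replicate 3, with limma adjusted p between 0.0598 and 0.116. Rescaling every sample to the same sum of FPKM moved the log2 change to 0.66 (limma adjusted p = 0.241).

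Atp2b1 (chr10:98914406-99026143, plus strand), the isoform found in most tissues, was 17.8, 11.5 and 32.1 FPKM in the adult and 11.7, 4.30 and 3.63 FPKM at E16.5. The groups overlapped by a narrow margin, adult replicate 2 being below E16.5 replicate 1. Its log2 change of 1.54 (SE 0.64, 95% confidence interval 0.06 to 3.03) did not pass the adjusted threshold (limma adjusted p = 0.147, unadjusted 0.0434) and did so in 0 of 18 alternatives. The highest sample of each age was the one in which brain markers were highest, adult replicate 3 for the oligodendrocyte and astrocyte list and E16.5 replicate 1 for the neuronal list, and the part of those markers in the values of Atp2b1 was not tested.

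Atp2b4 (chr1:133699457-133801041, minus strand), another widely expressed PMCA gene, was the only tested member whose adult samples were all lower. It was 3.07, 3.01 and 3.68 FPKM in the adult and 9.19, 3.81 and 11.4 FPKM at E16.5, where replicate 2 was close to the adult range. The log2 change of -1.0 (SE 0.64, 95% confidence interval -2.49 to 0.50) was not past the threshold (limma adjusted p = 0.319), lay near the median of all genes, and was 0.01 after quantile normalization.

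The 4 PMCA genes together were 591, 591 and 684 FPKM in the adult and 158, 168 and 181 FPKM at E16.5 (622 ± 54.1 against 169 ± 11.7 FPKM, SD, n = 3 each). Within a sample the share of each gene does not depend on scaling between samples. Atp2b3 made up 76.1%, 78.5% and 84.0% of the PMCA sum in the adult and 69.4%, 69.5% and 71.3% at E16.5. Every adult share was above every E16.5 share, a difference of 9.48 percentage points with an exact permutation p of 0.10 (two-sided), the smallest that 3 samples against 3 allow. Atp2b4 made up 0.520%, 0.510% and 0.537% in the adult and 5.82%, 2.26% and 6.31% at E16.5. Its adult shares lay close together and all below those of E16.5 (difference -4.28 percentage points, exact permutation p = 0.10). The shares of Atp2b2 (16.7% ± 5.17 in the adult and 21.1% ± 4.22 at E16.5, SD, n = 3 each) and of Atp2b1 (3.21% ± 1.39 and 4.0% ± 2.98) overlapped between the ages, with exact permutation p of 0.40 and 0.80. The ratio of Atp2b3 to Atp2b2 was 3.74, 4.13 and 7.77 in the adult and 4.0, 2.70 and 3.49 at E16.5, which overlapped too. Shares were tested for 8 of the listed genes (all but Slc8a1). In 3 of them the ages did not overlap, and their p adjusted by Benjamini-Hochberg over the 8 was 0.267.

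**Figure D2:**
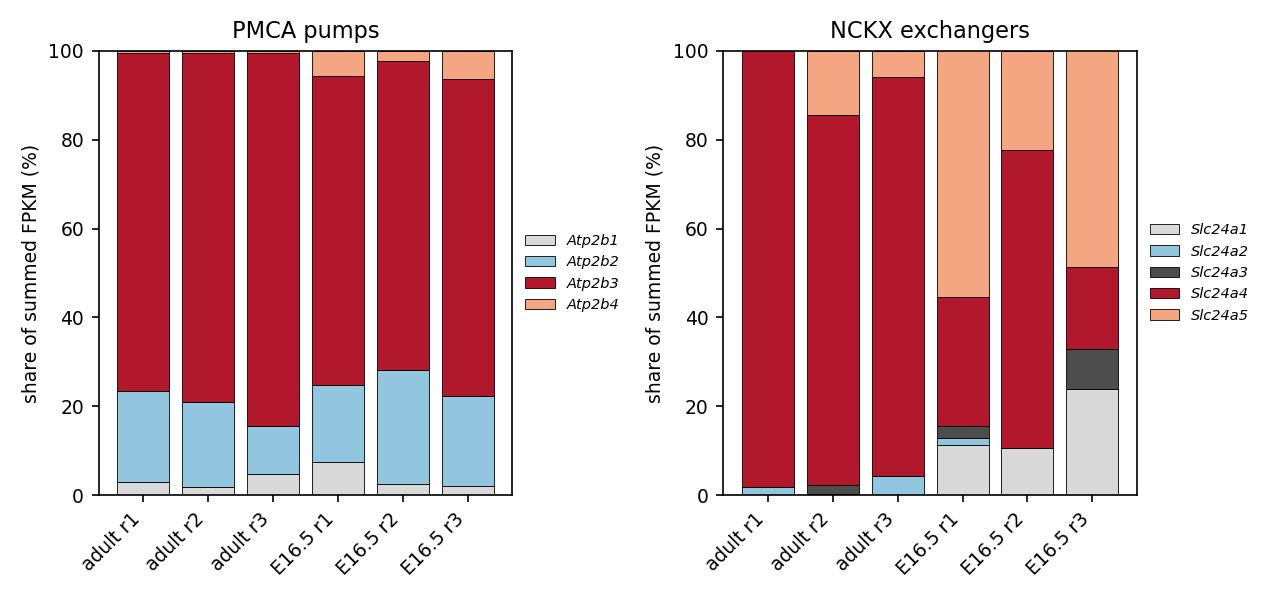
Share of each gene in the summed FPKM of its family, in %, for each sample (r1 to r3, replicates 1 to 3), with the PMCA pumps on the left and the NCKX exchangers on the right. Atp2b3 filled 69.4% to 84.0% of the PMCA bar in every sample, while Slc24a4 filled 83.2% to 98.1% of the NCKX bar in the adult and 18.4% to 67.0% at E16.5.

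Of the pumps of the endoplasmic reticulum, Atp2a2 (chr5:122453513-122502225, minus strand) codes for SERCA2, the form made in most cells. It was 157, 207 and 104 FPKM in the adult and 62.7, 58.3 and 57.7 FPKM at E16.5. The E16.5 samples were nearly level, and the adult samples were all above them but more widely spread, with replicate 2 highest and replicate 3 lowest (156 ± 51.5 against 59.6 ± 2.74 FPKM, SD, n = 3 each). The log2 change was 1.32 (SE 0.32, 95% confidence interval 0.57 to 2.07, limma adjusted p = 0.0423), the smallest of the 5 that passed. It passed in 7 of 18 alternatives (adjusted p from 0.0126 to 0.362). Of the 6 samples only adult replicate 3 could be left out without losing the call. The change came to 1.29 without adult replicate 1, 1.09 without adult replicate 2, 1.36 without E16.5 replicate 1, 1.31 without E16.5 replicate 2 and 1.3 without E16.5 replicate 3, with limma adjusted p between 0.0635 and 0.127. Rescaling to the same sum gave 0.50 (limma adjusted p = 0.362).

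Atp2a3 (chr11:72961169-72993044, plus strand) codes for SERCA3, a form known from blood cells and some epithelia. It was 20.7, 8.56 and 0 FPKM in the adult and 1.94, 0 and 0.0314 FPKM at E16.5. Adult replicates 1 and 2 were above all E16.5 samples and adult replicate 3, the shallowest library, was listed at 0, where 3 reads would have been worth 0.221 FPKM. The log2 change of 2.03 (SE 1.18, 95% confidence interval -0.71 to 4.77) did not pass (limma adjusted p = 0.271). Without adult replicate 3 it was 3.32 and passed (limma adjusted p = 0.0384), which it did in no other of the 17 alternatives that could test it (adjusted p up to 0.531). Atp2a2 held 88.3%, 96.0% and 100% of the SERCA sum in the adult and 97.0%, 100% and 99.9% at E16.5, overlapping between the ages (exact permutation p = 0.40). Atp2a1, the pump of fast skeletal muscle, was listed at 0 in all 6 samples.

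The Golgi pump Atp2c1 (chr9:105403539-105527319, minus strand) codes for SPCA1, the widely expressed form. It was 147, 171 and 140 FPKM in the adult and 50.2, 40.3 and 37.0 FPKM at E16.5. The samples of each age stood close together and far from those of the other age (153 ± 16.0 against 42.5 ± 6.87 FPKM, SD, n = 3 each). Atp2c1 rose by a log2 change of 1.83 (SE 0.28, 95% confidence interval 1.18 to 2.47, limma adjusted p = 0.0111), a fold of 3.55 on the FPKM + 1 scale. The call was made in 13 of 18 alternatives (adjusted p from 0.00354 to 0.0641) and was lost on leaving out E16.5 replicate 1, 2 or 3 (log2 change 1.95, 1.80 and 1.74, limma adjusted p = 0.0534, 0.0632 and 0.0572), at a threshold of 0.01, and after rescaling to the same sum of FPKM (log2 change 1.01, limma adjusted p = 0.0641). Atp2c2, which codes for SPCA2, was listed at 0 except for 1.04 FPKM in adult replicate 2, so that Atp2c1 made up at least 99.4% of the SPCA sum in every sample.

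Proportions between the pump classes were also compared within samples. The summed PMCA level was 4.11 ± 0.730 times the summed SPCA level in the adult and 4.07 ± 0.881 times at E16.5 (SD, n = 3 each, exact permutation p = 1.0), and the ratio of PMCA to SERCA overlapped between the ages (3.32, 2.74 and 6.58 in the adult against 2.44, 2.89 and 3.14 at E16.5, exact permutation p = 0.300). The ratio of SPCA to SERCA was 0.829, 0.796 and 1.34 in the adult and 0.777, 0.691 and 0.641 at E16.5, with every adult value above every E16.5 value but adult replicate 2 only just so (exact permutation p = 0.10). Of 9 ratios computed between classes or between single genes, 4 did not overlap between the ages. They were SPCA over SERCA, Atp2b3 over Atp2a2, Atp2c1 over Atp2a2 and Slc24a4 over Atp2b3, of which the first alone is between classes. Their exact permutation p adjusted by Benjamini-Hochberg over the 9 was 0.225.

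The exchanger Slc24a4 (chr12:102128733-102267091, plus strand) changed most. It codes for NCKX4, known from olfactory neurons and from enamel-forming cells. Slc24a4 was 75.1, 107 and 128 FPKM in the adult and 3.75, 9.96 and 0.610 FPKM at E16.5. The adult samples were all far above the E16.5 samples, which were low and unlike each other (103 ± 26.6 against 4.78 ± 4.76 FPKM, SD, n = 3 each). Its log2 change was 4.54 (SE 0.71, 95% confidence interval 2.90 to 6.18, limma adjusted p = 0.0125), a fold of 23.3 on the FPKM + 1 scale with an interval of 7.47 to 72.7. Its level moved from the 7.85th to 44.5th percentile of the genes tested at E16.5 to the 94.9th to 96.9th in the adult. It passed in 16 of 18 alternatives (adjusted p from 0.00214 to 0.0646), the exceptions being a threshold of 0.01 and leaving out E16.5 replicate 1 (log2 change 4.60, limma adjusted p = 0.0646). Its log2 change was 3.82 without E16.5 replicate 3 (limma adjusted p = 0.0453) and 5.20 without E16.5 replicate 2 (limma adjusted p = 0.0497). It was 3.89 after rescaling to the same sum, 5.37 after quantile normalization, and 5.07 and 5.14 with pseudocounts of 0.1 and 0.01. No 50-base stretch of Slc24a4 transcripts was shared with another gene (0%).

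The 250 bases before the start of Slc24a4 in RefSeq (GRCm38.p6, chr12:102128477-102128726, plus strand) are shown as the promoter of the member with the largest change, with the motifs found in capitals.
Slc24a4: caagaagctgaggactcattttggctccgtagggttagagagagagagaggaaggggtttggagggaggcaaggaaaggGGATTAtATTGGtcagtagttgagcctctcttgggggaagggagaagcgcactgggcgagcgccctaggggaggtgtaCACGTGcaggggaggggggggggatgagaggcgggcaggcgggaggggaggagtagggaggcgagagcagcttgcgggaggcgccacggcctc
Both strands were searched for the CCAAT box (letters CCAAT), the GC box (GGGCGG), the TATA box (TATAAA), an E-box (CACGTG) and the core bound by OTX-type homeodomain proteins (TAATCC). The window held 1 OTX-type core and 1 CCAAT box, both read on the other strand, and 1 E-box, which did not overlap each other. Of 32851 mouse promoter windows of the same length, 33.8% held the CCAAT box, 32.7% the GC box, 12.4% the TATA box, 6.02% this E-box and 6.25% the OTX-type core. Neither the E-box nor the OTX-type core was found in the windows of Atp2a3, Atp2b1, Atp2b2, Atp2b4, Atp2c1 and Slc8a1, as in most mouse promoter windows. No windows of Atp2a2 and Atp2b3, which also rose, were searched.

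Other NCKX genes were low. Slc24a5, an exchanger of intracellular membranes known from pigment cells, was 1.99e-33, 18.8 and 8.40 FPKM in the adult and 7.11, 3.32 and 1.62 FPKM at E16.5 (log2 change 0.34, limma adjusted p = 0.859), with widely spread adult samples. Its values are uncertain, since 37.8% of its 50-base stretches were shared, mostly with Myef2, which overlaps it on the other strand and was 17.0, 1.39e-07 and 1.09e-07 FPKM in the adult and 26.3, 17.5 and 8.64 FPKM at E16.5. Adult replicate 1 thus had Myef2 and almost no Slc24a5, and adult replicates 2 and 3 the reverse. Slc24a1, the exchanger of rod photoreceptors, was 0, 0.292 and 0 FPKM in the adult and 1.46, 1.59 and 0.798 FPKM at E16.5, below the filter. Slc24a2 was 1.44, 0 and 6.02 FPKM in the adult and 0.201, 0 and 0 FPKM at E16.5 (log2 change 1.28, limma adjusted p = 0.289), and Slc24a3 was at most 2.59 FPKM. The largest value of Slc24a2 was again in adult replicate 3.

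Slc24a4 made up 98.1%, 83.2% and 89.9% of the NCKX sum in the adult and 29.2%, 67.0% and 18.4% at E16.5. Each adult share was higher, by 52.2 percentage points on average (exact permutation p = 0.10). Without Slc24a5, an alternative chosen after the overlap with Myef2 was seen, the shares were 98.1%, 97.4% and 95.5% against 65.4%, 86.3% and 35.8%, a difference of 34.5 percentage points (exact permutation p = 0.10). Set against the main plasma membrane pump, Slc24a4 stood at 0.167, 0.231 and 0.223 of the level of Atp2b3 in the adult and at 0.0343, 0.0852 and 0.00472 at E16.5. The adult ratios were close to each other and above all E16.5 ratios (exact permutation p = 0.10).

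The NCX exchangers were near or at 0 throughout. Slc8a1 (chr17:81373105-81738377, minus strand), the exchanger of heart muscle and of many other cells, was listed at 0 in all adult samples and at 1.0, 0.113 and 0.511 FPKM at E16.5. In its longest coding transcript, of 18464 bases, 3 reads would have been worth 0.0187 to 0.0532 FPKM in the adult libraries. For shorter transcripts, the shortest coding one having 2017 bases, they would be worth more, so that the adult values of 0 are less certain than this floor alone tells. It was not tested because its mean over the 6 samples was below 1 FPKM, and no fold is given against a group listed at 0. Slc8a2 was listed at 0 in the adult and at 0.830, 0.940 and 0 FPKM at E16.5, and Slc8a3 was at most 0.807 FPKM in any sample.

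**Figure D3:**
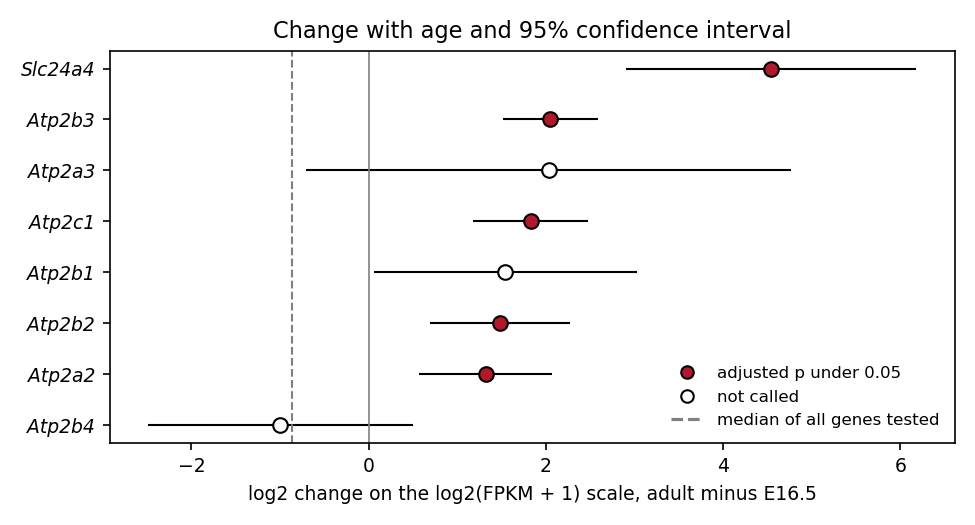
Fitted log2 change (adult minus E16.5, on the log2(FPKM + 1) scale) of the 8 tested genes, with the 95% confidence interval as a line, filled where the limma adjusted p was under 0.05, and the median of all genes tested (-0.86) dashed. The intervals of the 5 genes that rose lay above 0 and above the dashed line, and that of Atp2b4 (-2.49 to 0.50) covered both.

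**Figure D4:**
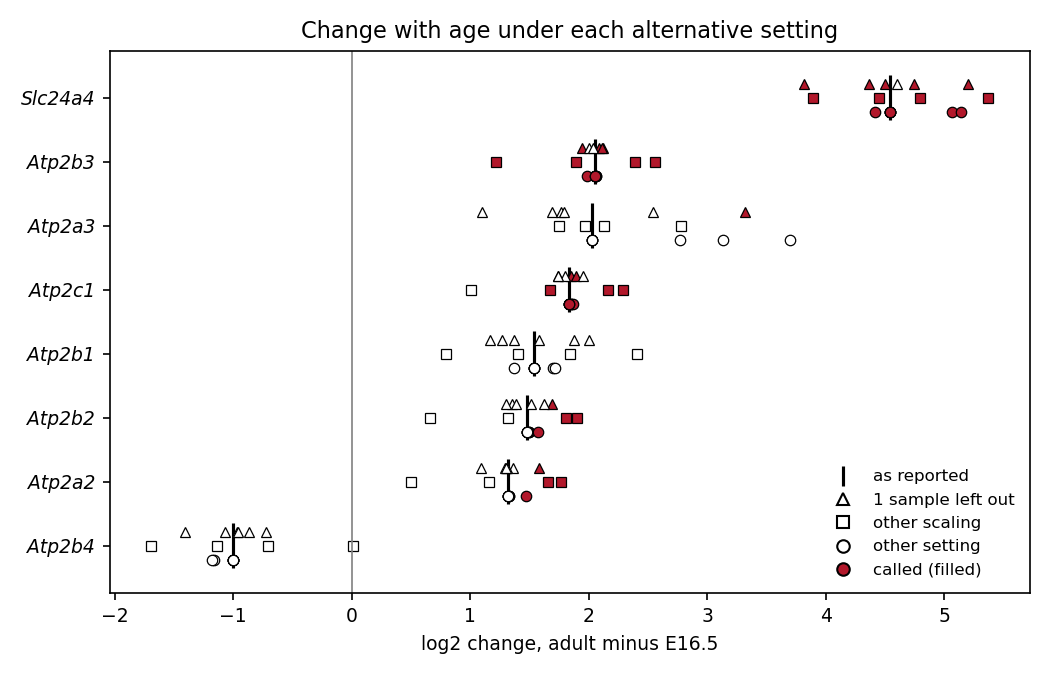
Log2 change (adult minus E16.5) of the 8 tested genes under each alternative setting, with the reported value as a bar, triangles for fits without 1 sample, squares for other scalings or quantile normalization and circles for the other settings, filled where the gene passed. Atp2b3 and Slc24a4 were filled in 16 of 18 alternatives, Atp2b1 and Atp2b4 in 0, and the changes of Atp2b4 ranged from -1.69 to 0.01.

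In order of their mean FPKM, the adult level was highest for Atp2b3, whose mean was 3.18 times that of the next gene with no overlap between samples. Atp2a2 and Atp2c1 followed with overlapping ranges (means 156 and 153 FPKM), then Slc24a4 and Atp2b2, also overlapping (103 and 102 FPKM), then, set apart by a mean ratio of 5.0, Atp2b1, Atp2a3 and Atp2b4 with each neighbouring pair overlapping, and Slc8a1 at 0. At E16.5 the order began with Atp2b3 (119 FPKM), Atp2a2 (59.6 FPKM), Atp2c1 (42.5 FPKM) and Atp2b2 (35.9 FPKM), of which Atp2c1 and Atp2b2 overlapped. After a gap with a mean ratio of 4.40 came Atp2b4, Atp2b1, Slc24a4, Atp2a3 and Slc8a1, each overlapping the next. Slc24a4 therefore changed from rank 7 of the 9 genes at E16.5 to rank 4 in the adult, and Atp2b4 from rank 5 to rank 8.

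The genes whose profile over the 6 samples came closest to those of the 2 members with the largest changes were found from the root mean square difference of log2(FPKM + 1), each gene centred on its mean. For Slc24a4 they were Ifi27 (0.57), Tgfb2 (0.68), a ligand of the TGF-beta family, and Cd9 (0.69), a tetraspanin. For Atp2b3 they were Abhd2 (0.14), a lipase, Lpgat1 (0.15), an acyltransferase of phospholipids, and Tcn2 (0.17), a carrier of cobalamin. Lpgat1, for instance, was 59.8, 63.4 and 66.5 FPKM in the adult and 16.6, 15.8 and 14.9 FPKM at E16.5. Among the members themselves, Atp2a2 with Atp2b2 and Atp2b3 with Atp2c1 were closest (0.28 each), and Atp2b4 with Slc24a4 farthest apart (3.02).

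Beyond the 9 listed genes, 60 genes of 6 calcium handling lists were tested, of which 8 (13.3%) rose and 7 (11.7%) fell, against 2.12% and 8.83% of all genes tested. One of the lists held the other paralogs of the pumps and exchangers, of which 2 were tested, Slc24a2 and Slc24a5, and 0 passed. The calls of the 6 lists needed every E16.5 sample, since 0 passed in either direction when E16.5 replicate 1, 2 or 3 was left out. Calls over all genes fell in those fits too, from 246 to 32, 27 and 47 higher in the adult. Those higher at E16.5 fell from 1024 to 25, 16 and 65. Without adult replicate 1 there were 5 and 4 in the lists, and 146 and 541 over all genes. Regulators and partner proteins of the pumps moved in both directions. Of 19 listed genes 15 were tested, of which 1 rose and 4 fell (2.12% and 8.83% of all genes tested), with a median log2 change of -1.11 against -0.86 for all genes. Nptn (neuroplastin), a subunit that PMCA pumps need to be stable at the membrane, was 89.8, 110 and 43.6 FPKM in the adult and 16.5, 15.8 and 9.90 FPKM at E16.5. All adult samples were higher, replicate 3 least so, and the log2 change was 2.38 (SE 0.46, limma adjusted p = 0.0234). Bsg (basigin), the other such subunit and the most abundant gene of the list, was 930, 1154 and 1202 FPKM in the adult and 1925, 1606 and 1352 FPKM at E16.5. Its adult samples were all lower, but the log2 change of -0.56 did not pass (limma adjusted p = 0.152), and it passed after rescaling to the same sum (-1.39, limma adjusted p = 0.0155) and was 0.14 after quantile normalization.
Calm2 and Calm3 code for calmodulin, which activates PMCA pumps when calcium rises. On the log2 scale Calm2 fell by 2.51 (limma adjusted p = 0.00634) and Calm3 fell by 1.59 (limma adjusted p = 0.00930). Calm2 was 82.9, 175 and 123 FPKM in the adult and 775, 635 and 685 FPKM at E16.5, with no overlap. Tmx1, a redox protein of the endoplasmic reticulum that acts on SERCA2, was 13.4, 25.7 and 14.0 FPKM in the adult and 78.8, 88.2 and 56.0 FPKM at E16.5 and fell by 2.05 on the log2 scale (limma adjusted p = 0.0240). The small SERCA inhibitors Pln and Sln were listed at 0 in all 6 samples.

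Of 17 genes of calcium release and store refill, 11 were tested, 1 rose (2.12% of all genes tested) and 0 fell, with a median log2 change of 0.04. The one that rose was Itpr1, the IP3-gated release channel of the endoplasmic reticulum and the most abundant of the list. Itpr1 was 197, 208 and 198 FPKM in the adult and 71.9, 59.9 and 86.5 FPKM at E16.5, the adult samples being almost equal (log2 change 1.47, SE 0.26, limma adjusted p = 0.0183). The call was made in 11 of 18 alternatives. It was lost after rescaling to the same sum (log2 change 0.65, limma adjusted p = 0.198), without a trend (limma adjusted p = 0.0705) and on leaving out any E16.5 sample (limma adjusted p from 0.0557 to 0.0751). The STIM and ORAI genes, which refill the store from outside, gave log2 changes of 0.22 for Stim1, 0.43 for Stim2, -0.46 for Orai1, -0.18 for Orai2 and -1.65 for Orai3, and none passed (limma adjusted p from 0.233 to 0.911).

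Calcium binding proteins of the lumen that SERCA and SPCA pumps fill were split. Of 15 genes 13 were tested, 4 rose and 2 fell (2.12% and 8.83% of all genes tested), with a median log2 change of 0.30. The 4 that rose became 0 after rescaling to the same sum, 1 after the same rescaling without Mir6236, 0 without a trend, 2 without adult replicate 1 and 0 on leaving out any E16.5 sample. Calls over all genes also fell when any E16.5 sample was left out. On the log2 scale Canx (calnexin) rose by 1.51 (limma adjusted p = 0.0201), Pdia3 by 1.08 (limma adjusted p = 0.0414), Hsp90b1 by 1.06 (limma adjusted p = 0.0310) and Hspa5 by 1.03 (limma adjusted p = 0.0295). After rescaling to the same sum the log2 change was 0.69 for Canx, 0.25 for Pdia3 and 0.23 for Hsp90b1 (limma adjusted p = 0.199, 0.522 and 0.609). Hsp90b1 was 853, 1174 and 1026 FPKM in the adult and 462, 450 and 544 FPKM at E16.5, without overlap. Calr (calreticulin), the most abundant gene of the list, was 888, 1315 and 1074 FPKM in the adult and 703, 647 and 584 FPKM at E16.5, with all adult samples higher, and its log2 change of 0.75 did not pass (limma adjusted p = 0.0800) and was -0.08 after rescaling to the same sum. Rcn3, a calcium binding protein of the secretory pathway, was 0, 0.180 and 0 FPKM in the adult and 25.9, 15.5 and 23.8 FPKM at E16.5 (limma adjusted p = 0.00828). Pdia4, which like Pdia3 is a disulfide isomerase, fell by 1.47 on the log2 scale (limma adjusted p = 0.0279).

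For mitochondrial calcium, 13 genes were listed, 10 tested, 0 rose and 1 fell (8.83% of all genes tested), with a median log2 change of -1.26. The one that fell, and the most abundant, was Smdt1 (EMRE), a subunit of the mitochondrial uniporter, at 161, 204 and 124 FPKM in the adult and 499, 459 and 279 FPKM at E16.5 (log2 change -1.32, limma adjusted p = 0.0420). Adult replicate 2 came closest to the E16.5 range without reaching it. The call was made in 6 of 18 alternatives and was lost, among others, with median-ratio scaling (log2 change -0.98, limma adjusted p = 0.0855), after quantile normalization (-0.78, limma adjusted p = 0.142), without a trend (limma adjusted p = 0.120), and on leaving out any E16.5 sample or adult replicate 1 or 3 (limma adjusted p from 0.0589 to 0.144). In 5 of the 10 genes, among them Mcu, the pore of the uniporter, all adult samples were below all E16.5 samples, which is the case in 31.0% of all genes tested. Mcu was 10.7, 1.06 and 0 FPKM in the adult and 17.5, 18 and 27.1 FPKM at E16.5 (log2 change -2.89, limma adjusted p = 0.0854).

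Of 19 genes of calcium entry and sensing at the plasma membrane 9 were tested, 2 rose (2.12% of all genes tested) and 0 fell, with a median log2 change of -0.23. Piezo1, a channel opened by membrane tension, was 48.9, 51.9 and 63.7 FPKM in the adult and 9.09, 6.95 and 9.08 FPKM at E16.5 (log2 change 2.57, limma adjusted p = 0.0101), with the samples of each age close together. Trpv4, a channel opened by swelling and warmth, was 85.5, 111 and 149 FPKM in the adult and 24.4, 25.8 and 14.5 FPKM at E16.5 (log2 change 2.37, limma adjusted p = 0.0131). Trpm3, the most abundant of the list, was 193, 246 and 223 FPKM in the adult and 262, 314 and 291 FPKM at E16.5. Its adult samples were all lower, but its log2 change of -0.39 did not pass (limma adjusted p = 0.277) and was 0.08 after quantile normalization.

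The P4-ATPases, relatives of the calcium pumps that move phospholipids and no metal ion, served for comparison. Of 15 genes 9 were tested, 1 rose (2.12% of all genes tested) and 0 fell, with a median log2 change of 1.12. The one that rose, also the most abundant, was Atp11a at 122, 96.9 and 110 FPKM in the adult and 9.02, 17.4 and 14.7 FPKM at E16.5 (log2 change 2.95, limma adjusted p = 0.00601). Without E16.5 replicate 2 it was 3.14 and did not pass (limma adjusted p = 0.0521). All adult samples were higher in 4 of the 9 (7.39% of all genes tested), and the calls of this list were not counted among the 8 above.

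**Figure D5:**
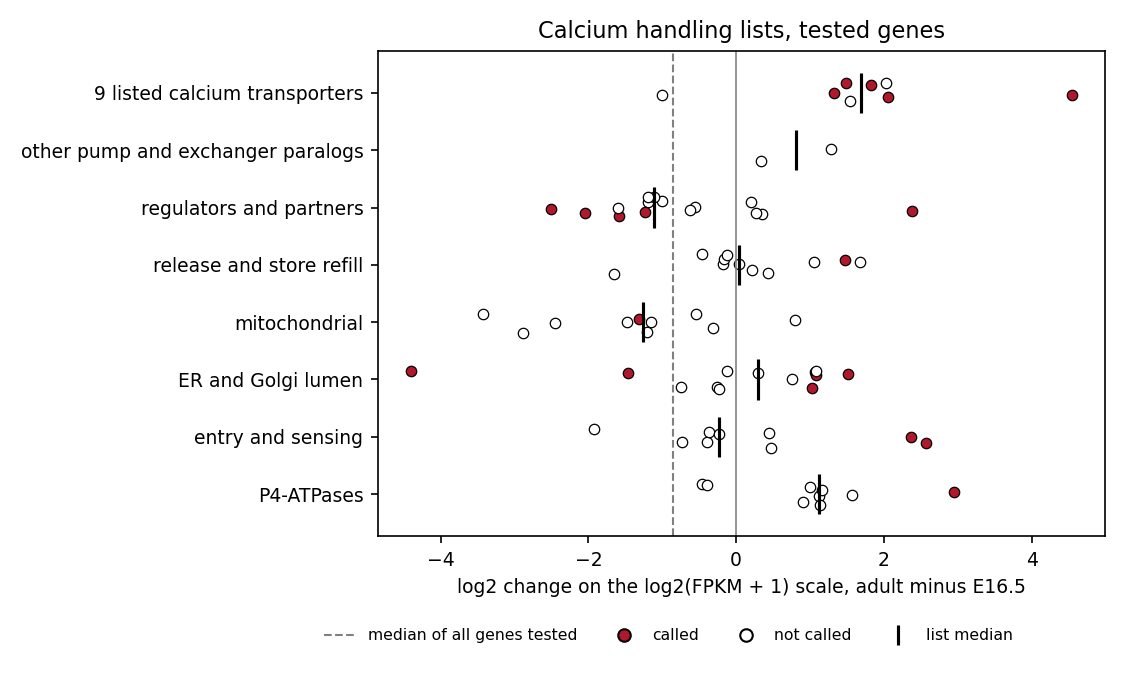
Log2 change (adult minus E16.5, on the log2(FPKM + 1) scale) of each tested gene of the 9 calcium transporters and of the related lists, filled where the limma adjusted p was under 0.05, with the median of each list as a bar and that of all genes tested (-0.86) dashed. Points are spread in height only to keep them apart. The 9 transporters had a median of 1.69 over their 8 tested genes, and the regulators (-1.11) and mitochondrial genes (-1.26) had medians below the dashed line.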

How the data were processed

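TRAP-seq libraries of 3 adult (P60) and 3 E16.5 ChP samples were analysed by age, as labelled. According to the study's methods and the submitters' processing notes, the authors aligned single-end reads of 50 bases to mm10 with STAR 2.4.0 and calculated the deposited FPKM with Cufflinks. The annotation given to it is not given in the sources used here. All columns of the table were matched to samples. The deposited FPKM were taken without further scaling.

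A gene entered the test where its FPKM averaged more than 1 across the 6 samples. The test ran on log2(FPKM + 1), which understates the change of low genes, with limma 3.58.1 in R 4.3.3 (intensity trend, no covariates, two-sided), with Benjamini-Hochberg adjustment over all genes tested and a threshold of 0.05. Read counts were not analysed here. Shares and ratios within samples were compared by two-sided exact permutation tests, whose smallest p is 0.1. Lists were described by counts and medians, without a set test. The fit was also run on simulated data, and the permutation test on fixed sets of values whose p was known in advance.

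The 9 genes and the lists were chosen with earlier results of these data known. Named were the 9 genes, their paralogs, up to 3 genes past the threshold in each direction and the most abundant gene of each list, the leading marker genes, and the nearest profiles of the 2 members that changed most. Hspa5, Pln, Sln, Mcu, the STIM and ORAI genes, Aste1, Myef2, Mir6236 and further markers were named after their values were seen. Depth was estimated from the spacing of low FPKM in genes with a single transcript of more than 1000 bases, taking 200 bases off each length, and 65.1% to 82.1% of those low values lay within 0.1 of a whole read. Such floors cover counting error only. Coordinates and coding windows are from the GENCODE annotation of GRCm38, in which 95.6% of the gene names were found, and promoters from RefSeq (GRCm38.p6). No promoter was printed for Atp2a2 and Atp2b3, and some genes and sequences are not reported here. Replicate numbers were not taken to pair the samples. Correlations of deviations were 0.000895, 0.0439 and 0.015 between same-numbered samples and -0.0292 to 0.0135 between the others. Values this small cannot decide whether samples shared a preparation.

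Alternatives were other pseudocounts (0.1 and 0.01), filters, scalings, weights, thresholds, no trend, a replicate block, leaving out each sample, and, chosen after seeing the data, rescaling without Mir6236 and the NCKX share without Slc24a5.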

Additional observations from a re-analysis of the deposited data

How the results depend on the processing

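The number of calcium pump and exchanger genes higher in the adult was 5, and 0 were higher at E16.5 under every alternative run. The first count was 2 after rescaling to the same sum of FPKM, 3 after the same rescaling without Mir6236, 3 with limma without a trend, 1 at an adjusted p of 0.01, and 0 to 6 when 1 sample was left out. With the replicate number as a block, which pairs samples by a shared number only, it was 3, and over all genes 112 were higher in the adult and 452 higher at E16.5, against 246 and 1024 without the block. For the calcium handling lists, the 8 genes higher in the adult became 3 after rescaling to the same sum, 5 without Mir6236, 3 without a trend, 0 at an adjusted p of 0.01, 3 with the replicate block and 0 to 8 when 1 sample was left out. The 7 higher at E16.5 became 17 after rescaling to the same sum, 4 after quantile normalization, 3 without a trend, 3 at an adjusted p of 0.01 and 0 to 9 when 1 sample was left out. Over all genes, leaving out 1 sample gave 27 to 357 higher in the adult and 16 to 1704 higher at E16.5. At an unadjusted p under 0.05, 3626 genes passed in all.

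The log2 change turned its sign for Atp2b4 (0.01), Bsg (0.14) and Trpm3 (0.08) after quantile normalization and for Calr (-0.08) after rescaling to the same sum. That of Slc24a5 did so with a pseudocount of 0.1 (-0.47) and 0.01 (-1.54), after rescaling to the same sum (-0.19), and without adult replicate 2 (-0.56), adult replicate 3 (-0.02) or E16.5 replicate 3 (-0.05), and reached 1.60 without adult replicate 1. The cause was not tested. The median log2 change of all genes was -0.86 as reported, -0.58 with median-ratio scaling, -1.48 after rescaling to the same sum and 0.01 after quantile normalization. Over these scalings the higher and lower calls went from 246 and 1024 to 348 and 660, 119 and 3238, and 569 and 504. With shares taken from FPKM + 1, from summed samples or without 1 sample, the differences of Atp2a2, the 4 PMCA genes and Slc24a4 moved by less than the pooled SD of the replicates, with a change of sign for Atp2b1 alone (from -0.782 to 0.933 percentage points without E16.5 replicate 1). Without Slc24a5 that of Slc24a4 went from 52.2 to 34.5 percentage points. The replicate block also ended the calls of Itpr1 (adjusted p = 0.0501), Canx, Pdia3, Hsp90b1 and Hspa5. The adult libraries were 1.0 to 2.84 times as deep as the shallowest and those of E16.5 4.01 to 5.08 times, so that low adult values, those of Atp2a3 and Slc8a1 among them, are the least certain.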
